A study of Mus musculus with 12 samples.

Results

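The genes that encode the proteins of the cytosolic ribosome were followed across 12 mRNA-seq libraries of mouse embryonic stem (ES) cells. The genes were taken by symbol: every protein-coding gene named Rpl or Rps with a number, with an optional a, x, l or l1 at the end, together with Rplp0, Rplp1, Rplp2 and Rpsa. The kinases named Rps6k and the many ribosomal protein pseudogenes were left out. This gave 82 of the 47643 genes in the count table, 51 of the large and 31 of the small subunit, spread over 19 chromosomes, and all 82 passed the filter on low counts that left 14629 genes to be tested. Some other genes of ribosomal proteins, such as Rps3a1, Fau, Rack1 and Rpl36al, have symbols outside this rule and are not among the 82.

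The libraries come from E14 ES cells, a line of the 129/Ola background, grown in serum and LIF on gelatin, and every line was kept in puromycin. There were 2 libraries for each of 6 groups. WT carried normal Dicer, KO was a Dicer knockout, and SOM, 41584, 41585 and 41589 were the remaining lines, which the series title covers as Dicer-complemented without saying so of each one. The labels call 41584 similar to WT, 41585 unable to process either miRNAs or siRNAs, and 41589 unable to process siRNAs; they give no such property for SOM. They also do not explain the 4 names, which part of Dicer1 was deleted, what was put back, or whether a line is 1 clone. Whether both libraries of a line were grown as separate cultures is not stated, so a p-value here reflects library-to-library spread that may be technical.

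Each cytosolic ribosome is built from ribosomal RNA and one copy of most ribosomal proteins, and growing cells make these proteins in balance, since unassembled ones are degraded. Their mRNAs are short, abundant and mostly controlled as a block in translation through a terminal oligopyrimidine (TOP) tract at the 5' end, which responds to mTOR signalling. Dicer cuts miRNA and siRNA precursors to their mature length, and ES cells without it still divide but differentiate poorly. A few ribosomal proteins have a second gene, or paralogue, whose mRNA is regulated on its own and can be limited to certain tissues.

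Several sequence features recur at the starts of these genes, so 5 starts are shown: 3 genes with long pyrimidine runs, from both subunits, and both paralogues that were called in KO. Each window is 30 bases centred on a RefSeq start (GRCm38.p6), read 5' to 3' on the strand of the gene, and capitals mark its longest run of C and T.

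Rpl28, chr7:4792950-4792979, plus strand: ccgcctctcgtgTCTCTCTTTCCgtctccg
Rpl4, chr9:64173372-64173401, plus strand: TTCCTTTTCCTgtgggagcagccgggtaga
Rps9, chr7:3704026-3704055, plus strand: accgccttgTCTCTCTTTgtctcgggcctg
Rps27l, chr9:66946071-66946100, plus strand: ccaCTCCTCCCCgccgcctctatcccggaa
Rpl10l, chr12:66284387-66284416, minus strand: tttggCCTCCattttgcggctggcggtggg

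RefSeq windows from 250 bases before to 50 after the start were matched to 62 of the 82 genes by symbol. A run of at least 8 pyrimidines within 15 bases of the start was present in 25 of the 62 (40.3%) and in 12% of all 32851 windows. The ETS-type letters CCGGAAG, on either strand of the whole window, occurred in 24 (38.7%) against 8.86% of all windows. The letters TATAAA, also on either strand, occurred in 6 (9.68%) against 13.6% of all windows. Of the windows printed, Rpl10l has no pyrimidine run above 5 bases, and the other 4 have runs of 9 to 11. These are matches of letters and not sites of a factor.

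Levels are given as CPM, the count divided by the library total and multiplied by 1000000, after TMM scaling corrected the totals for composition. They are relative within a library, and in bulk RNA fewer cells of a type and less RNA per cell cannot be told apart. Library totals ran from 5348401 to 10428509 counted reads, and TMM factors from 0.904 to 1.08. The mitochondrial genome gave 3.04% to 5.02% of all counts. Replication-dependent histone genes, whose mRNAs lack a poly(A) tail, gave at most 0.00213%. The 9 ES cell markers summed to 6843 to 7548 CPM in KO and 41585 and to 5849 to 7020 CPM in the other 8 libraries, so the labelled cell type was present throughout. Single markers moved apart. With KO and 41585 set against WT, 41584 and 41589, edgeR called 3 of the 9 higher and 1 lower, with a median log2 fold of −0.24. Over all tested genes 17.6% were called higher and 15.9% lower. The 6 primitive endoderm markers summed to 5.70 to 9.15 CPM in KO and 41585 and to 7.94 to 65.7 CPM in the other 8 libraries, with Foxa2 under 1 CPM in all 12. Of the 4 tested, Gata6 (−4.07 ± 0.75 on the log2 scale), Dab2 (−3.57 ± 0.60) and Pdgfra (−2.27 ± 0.45) were called lower by edgeR in KO and 41585 against WT, 41584 and 41589. The 6 trophectoderm markers summed to 25.9 to 63.4 CPM in KO and 41585 and 30.1 to 82.7 CPM in the others, with Cdx2 under 1 CPM everywhere, but single markers moved apart in the same comparison: Elf5 (3.99 ± 0.71) and Hand1 (2.80 ± 0.55) were called higher and Eomes (−0.98 ± 0.26) lower. The 6 fibroblast markers summed to 6.93 to 14.4 and 6.37 to 27.5 CPM, with Col1a2, Col3a1, Postn and Acta2 under 1 CPM everywhere. The 6 two-cell-like markers summed to 37.4 to 163 and 8.83 to 102 CPM, with Tcstv3 called higher (2.12 ± 0.72). The part of these cells in the results below was not tested. Dicer1 stood at 197 to 214 CPM in WT, 105 to 215 in SOM, 42.3 to 55.0 in 41584, 27.8 to 40.2 in 41589, 28.5 to 44.0 in KO and 29.1 to 39.2 in 41585.

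The share of all counted reads that fell on the 82 genes ranged from 4.45% to 6.22%, and libraries of the same line differed in it. It was 4.87% and 5.06% in WT, 6.22% and 5.08% in SOM, and 5.54% and 4.45% in 41584. It was 4.61% and 6.12% in 41589, 4.72% and 4.46% in KO, and 5.75% and 5.84% in 41585. The widest gap within a line was that of 41589 and it spanned most of the range of the 12.

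Most of these mRNAs were abundant. The median of their mean levels was 498 CPM, against 21.7 CPM over the other 12986 tested coding genes with a coding sequence, and 66 of the 82 were at 100 CPM or more in every library. Per kilobase of coding sequence, Rps24 (4944 CPM per kb) and Rpl39 (3947) led, followed by Rps4x (2990), Rpl41 (2815) and Rps27a (2792), which encodes a ubiquitin fused to a small-subunit protein. The divisor was the coding length alone, so a short coding sequence raises this rank. Rpl41 has 78 coding bases and a mean of 220 CPM, below the median of the 82, and Rpl39 has 156 coding bases and 616 CPM. Rpl3l (0.804 CPM per kb), the striated-muscle paralogue of Rpl3, was lowest, with 93 reads over all 12 libraries. Rpl24 followed at 9.35 CPM per kb and 398 reads. Rpl29 (59.3), Rpl36 (60.3) and Rpl10l (162 CPM per kb) completed the 5 lowest. Rpl24, Rpl29 and Rpl36 encode regular parts of the large subunit. Of the 50-base stretches of each gene's transcript, a median of 51.9% also occurred in transcripts of other genes, and 43 of the 82 shared more than 50% of them, Rpl24 81.7% and Rpl36 81.1%. The sources used here do not give the read length or how reads that match several genes were counted, so the level of such genes is uncertain, while Rpl3l and Rpl39l shared no such stretch.

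The largest differences among the 12 libraries followed the base composition of the genes. Genes whose coding sequence is rich in G and C were low together in WT replicate 1 and 41589 replicate 1 and high together in both 41585 libraries and in 41589 replicate 2. Genes of low GC shifted less, on median, and mostly the other way. Coding GC ran from 39.6% in Rpl22l1 to 61.3% in Rpl36, with a median of 52.5%, close to the 52.8% of other tested coding genes. To show what these ends look like, the first 120 coding bases of the highest and the lowest are printed from GENCODE M21 transcripts, with every G and C in capitals.

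Rpl36, 74 of 120 bases G or C: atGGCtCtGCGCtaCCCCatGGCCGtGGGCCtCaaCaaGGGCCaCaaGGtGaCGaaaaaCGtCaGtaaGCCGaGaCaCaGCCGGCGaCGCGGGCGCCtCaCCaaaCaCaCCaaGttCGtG
Rpl22l1, 53 of 120 bases G or C: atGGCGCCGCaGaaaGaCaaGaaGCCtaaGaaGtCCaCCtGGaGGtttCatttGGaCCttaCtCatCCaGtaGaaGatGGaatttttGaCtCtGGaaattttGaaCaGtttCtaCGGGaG

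Rpl36, a large-subunit protein, showed the widest spread of the 82. It was at 4.48 and 7.0 CPM in WT, 23.3 and 10.9 in SOM, 18.2 and 9.79 in 41584, 3.96 and 48.0 in 41589, 9.15 and 9.08 in KO, and 43.1 and 43.4 in 41585. Its lowest and its highest library were both 41589, 12.1-fold apart. Rps15, a small-subunit protein with 58.7% GC, was at 60.3 and 117 CPM in WT, 205 and 133 in SOM, 178 and 84.7 in 41584, 58.8 and 357 in 41589, 115 and 105 in KO, and 353 and 349 in 41585. Again the lowest and the highest of the 12 were the libraries of 41589, and 41585 stood with the higher of them. Rpl18, of the large subunit and 58.9% GC, went from 100 to 455 CPM between the libraries of 41589, with WT at 76.9 and 149 and 41585 at 433 and 417.

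At the other end, Rpl22l1, the paralogue of Rpl22, was at 397 and 282 CPM in WT, 333 and 213 in SOM, 281 and 219 in 41584, 258 and 143 in 41589, 197 and 211 in KO, and 151 and 154 in 41585. Its lowest library was 41589 replicate 2, below both of 41585. Rpl39, a short protein of the exit tunnel with 44.2% GC, was at 924 and 584 CPM in WT, 709 and 497 in 41589, 641 and 626 in KO and 444 and 482 in 41585. Not every gene took part: Rpl4, with 50.2% GC, stayed between 2887 and 3623 CPM in all 12 libraries, and Rpl27a, with 53.2%, spread by 1.23-fold from lowest to highest, the least of the 82. The median spread of the 82 was 1.91-fold.

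**Figure D1:**
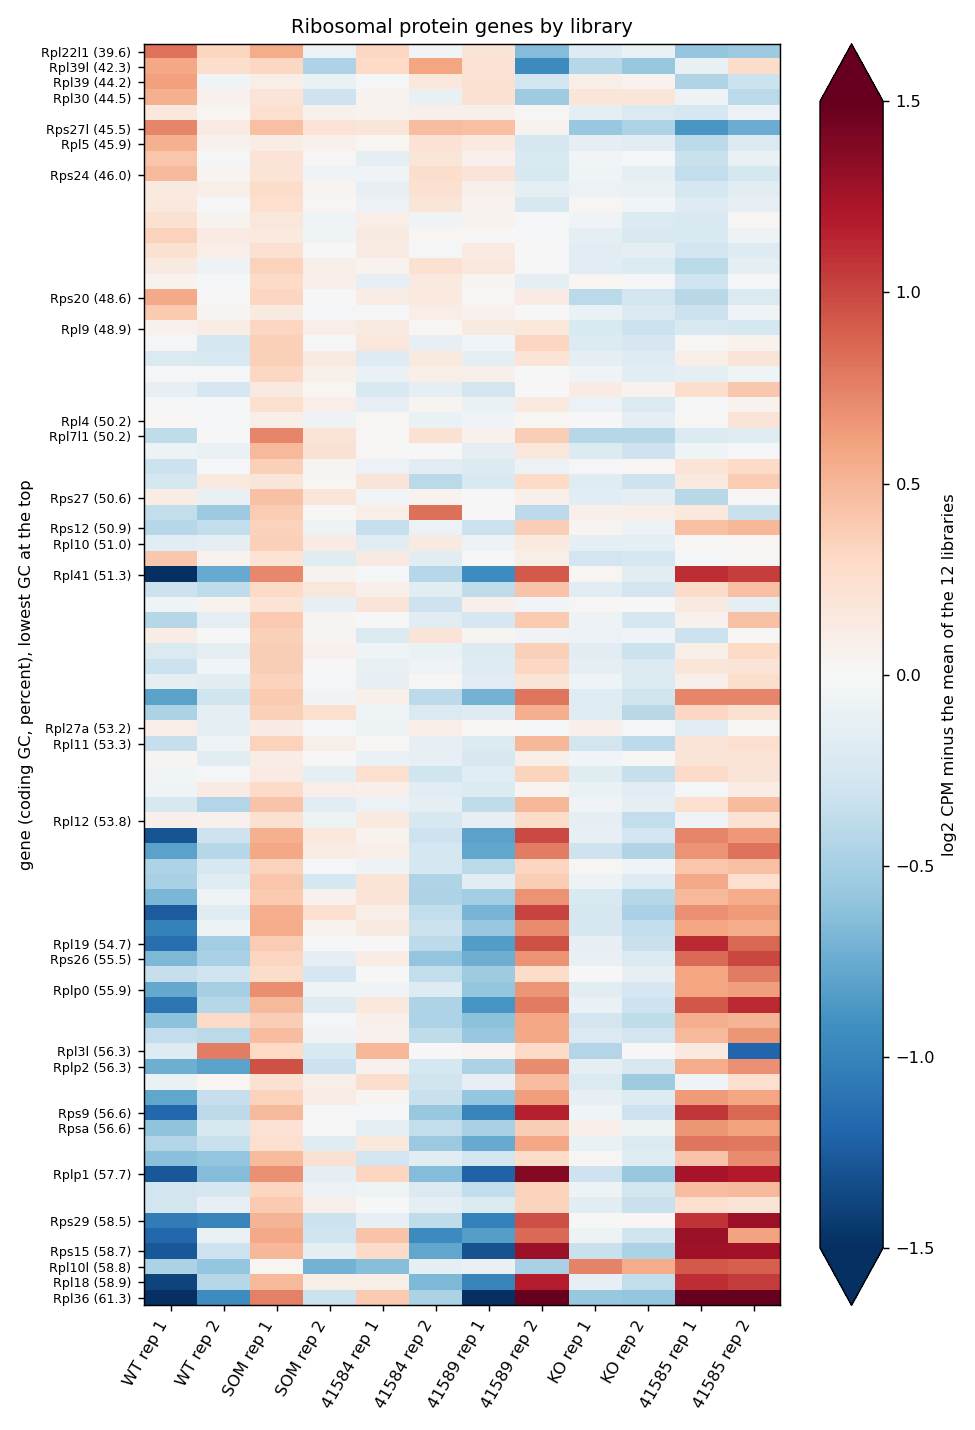
Each line of the heat map is 1 of the 82 genes, ordered from the lowest coding GC at the top to the highest at the bottom, with genes described in the text labelled, and each column is a library; colour gives log2 CPM minus the gene's mean over the 12 libraries, capped at 1.5 either way. The genes of high GC at the bottom are low in WT replicate 1 and 41589 replicate 1 and high in 41589 replicate 2 and both 41585 libraries, while Rps27l and Rpl10l stand out from their neighbours in KO and 41585.

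One axis carried most of this. The first principal component of the 82 genes over the 12 libraries held 80.8% of their variation, the second 7.84%. Across the 82 genes, its weight had a Spearman rho of 0.84 and a Pearson r of 0.81 with coding GC. For coding length rho was −0.002, for the number of exons −0.08, for the share of 50-base stretches found in other genes −0.01, and for the mean log2 level −0.45. These are descriptions over genes of the same 12 libraries, which are not independent, and carry no p.

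Within each library, the deviation of log2 CPM from the gene's mean was fitted on coding GC. Per 10 points of GC the slope over the 82 genes was −1.03 and −0.37 in WT, 0.14 and −0.08 in SOM, and 0.02 and −0.50 in 41584. It was −0.73 and 0.84 in 41589, 0.007 and −0.09 in KO, and 0.97 and 0.82 in 41585. The libraries of 41589 thus had steep slopes of opposite sign. Those of WT differed in size, and those of 41584 stood at 0.02 and −0.50. Those of KO, of SOM and of 41585 were each close to one another, though in KO and SOM the signs differed. The 27 genes of highest GC stood on median 0.68 above the 27 of lowest GC in 41589 replicate 2 and 0.65 below them in replicate 1, on the log2 scale. In WT replicate 1 the same gap was −0.89, and in 41585 it was 0.89 and 0.79.

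The slope was not limited to ribosomal protein genes. Over 8831 other coding genes with a mean log2 CPM above 3 it was −0.53 in WT replicate 1, −0.35 and 0.38 in 41589, and 0.53 and 0.37 in 41585. Over 77 mitochondrial ribosomal protein genes, which build a separate ribosome from nuclear genes, it was −0.55 in WT replicate 1, −0.40 and 0.48 in 41589, and 0.52 and 0.44 in 41585. In these 5 libraries the slope of the 82 genes had the same sign as the other lists and was the steepest of the 3. Coding length went with level mainly in SOM replicate 1, where rho was −0.34 over the other coding genes and −0.23 over the 82. A smooth trend on GC and length was also taken out of each library. It was estimated over tested genes above a low mean level, ribosomal protein genes and genes without a coding sequence included. The slope of the 82 genes was then still −0.54 in WT replicate 1, −0.35 and 0.39 in 41589, and 0.36 and 0.47 in 41585. That correction thus removed part of the slope.

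**Figure D2:**
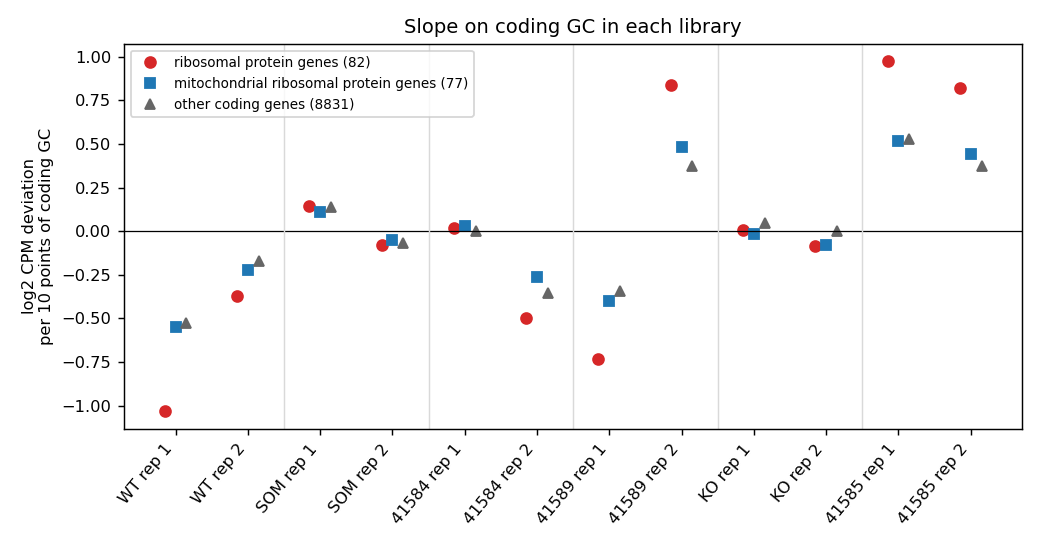
The plot gives, for each library on the x axis, the slope of the log2 CPM deviation per 10 points of coding GC over the 82 ribosomal protein genes (circles), 77 mitochondrial ribosomal protein genes (squares) and 8831 other coding genes (triangles). The circles run from −1.03 in WT replicate 1 to 0.97 in 41585 replicate 1, and the libraries of 41589 lie at −0.73 and 0.84.

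The difference between the libraries of 41589 can be set beside the difference between 41585 and WT, since these share no library. Replicate 2 of 41589 minus replicate 1 gave a median of 0.44 on the log2 scale over the 82 genes, with 23 above 1 and 1 below −1 (Rpl39l, −1.18). The means of 41585 minus WT gave a median of 0.37, with 24 above 1 and 2 below −1. Gene by gene, these differences had a Pearson r of 0.91 and a Spearman rho of 0.90, across 82 genes and with no p. KO minus WT against the same difference in 41589 gave an r of 0.69 and a rho of 0.72. The standard deviation of the 82 differences was 0.87 between the libraries of 41589 and 0.86 between 41585 and WT. It was 0.42 between the libraries of WT, 0.39 for 41584, 0.23 for SOM, 0.24 for 41585 and 0.11 for KO. The spread between the libraries of 41589 was thus as wide as that between 41585 and WT.

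**Figure D3:**
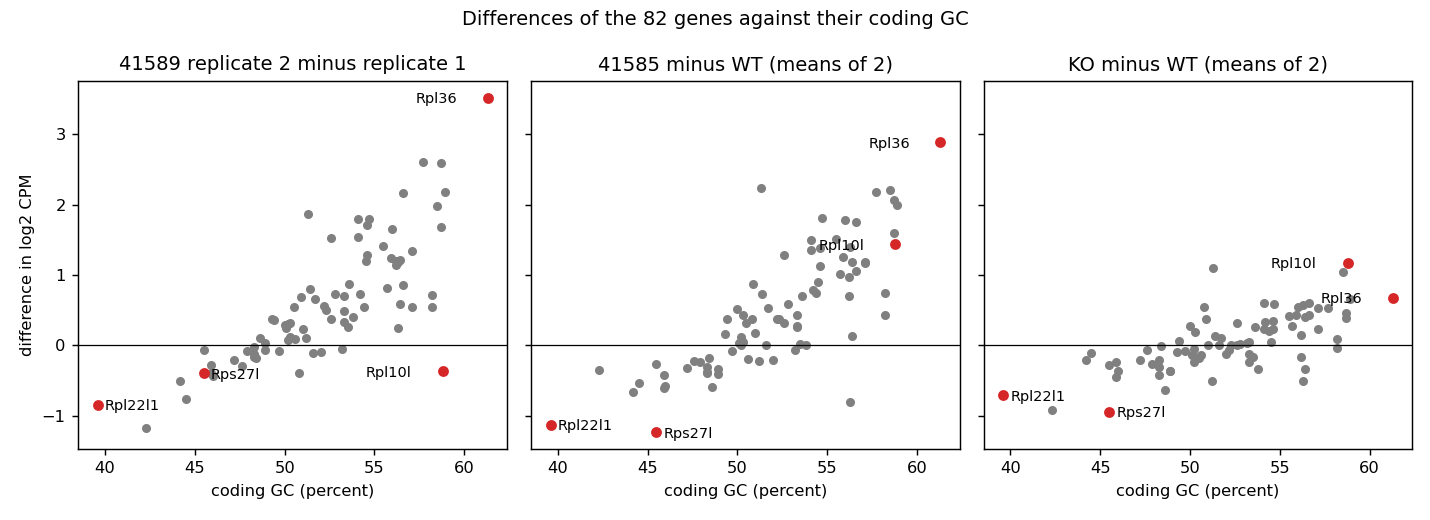
Each panel plots, for the 82 genes, a difference in log2 CPM (y axis) against coding GC in percent (x axis): 41589 replicate 2 minus replicate 1 on the left, the means of 41585 minus WT in the middle and of KO minus WT on the right, with 4 genes in red. The clouds rise with GC in all 3 panels, and Rpl10l lies below 0 on the left and above 1 in the other panels.

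Group differences were tested with edgeR's quasi-likelihood test over all 14629 genes, with all 12 libraries in the fit, and "called" means a Benjamini-Hochberg adjusted p under 0.05. Each fold is on the log2 scale and is followed by its fitted standard error, with n = 2 libraries per line. The comparisons with WT share its libraries, as those with 41584 and 41585 share theirs, so they are given side by side and not as support for one another.

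In KO the ribosomal protein mRNAs stood, on median, where the other genes did. In KO against WT, 1 of the 82 was higher and 1 lower, against a background of 13.2% of all tested genes called (7.29% higher, 5.90% lower). The median fold was 0.01, and 0.00 over all tested genes. The 2 called genes were the paralogues Rpl10l and Rps27l. Among the 80 not called, the folds ran from −0.94 (Rpl39l, adjusted p = 0.0986) to 1.05 (Rps29, 0.151) and 1.04 (Rpl41, 0.154). At an unadjusted p under 0.05 there were 8 of the 82 and 4410 of all genes. The number called fell when a WT or KO library was left out. Such a fit has 1 library in a compared line, so its count is not given. Without either 41589 library 5 were called, and the totals over all genes in those fits are not given here.

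Rpl10l is an intronless copy of the X-linked large-subunit gene Rpl10, known for standing in for it in the testis when the X chromosome is silent. It lies on chromosome 12 (chr12:66283379-66284401, minus strand, GRCm38), and 7.60% of its 50-base stretches occur elsewhere. It was at 68.5 and 64.0 CPM in WT, 97.5 and 58.6 in SOM, 61.5 and 86.6 in 41584, 88.5 and 68.4 in 41589, 160 and 140 in KO, and 181 and 179 in 41585. All 4 libraries of KO and 41585 lay above all 8 others. In KO against WT it rose by 1.18 ± 0.27 on the log2 scale (adjusted p = 0.0157). The rise was 1.44 ± 0.27 (0.00468) when 41585 was set against WT and 1.28 ± 0.27 (0.0125) when it was set against 41584. With KO and 41585 set against WT, 41584 and 41589 it rose by 1.18 ± 0.17 (0.000325). With 58.8% GC it is one of the 3 genes of highest GC among the 82. Between the libraries of 41589 it went from 88.5 to 68.4 CPM, and Rpl36 went from 3.96 to 48.0. The part of base composition in the values of Rpl10l was not tested.

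Rps27l is the paralogue of the small-subunit gene Rps27 and is known as a target of p53. It lies on chromosome 9 (chr9:66946086-66949516, plus strand, GRCm38, 4 exons). It was at 365 and 240 CPM in WT, 300 and 253 in SOM, 251 and 303 in 41584, 302 and 229 in 41589, 148 and 160 in KO, and 121 and 131 in 41585. All 4 libraries of KO and 41585 lay below all 8 others. In KO against WT it fell by 0.97 ± 0.25 on the log2 scale (adjusted p = 0.0254). For 41585 it fell by 1.27 ± 0.25 (0.00566) relative to WT and fell by 1.14 ± 0.25 (0.0150) relative to 41584. With the groups pooled it fell by 1.01 ± 0.17 (0.000704).

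Leaving out a library of a compared line leaves 1 library there, so only the log2 folds of such fits are given. Whether the calls rest on single libraries cannot be decided from them. In KO against WT without WT replicate 1 or 2, Rpl10l stood at 1.23 and 1.13 and Rps27l at −0.65 and −1.24. Without KO replicate 1 or 2, Rpl10l stood at 1.09 and 1.32 and Rps27l at −0.91 and −0.98. In 41585 against WT such folds ran from 1.39 to 1.48 for Rpl10l and from −0.94 to −1.54 for Rps27l. In 41585 against 41584 they ran from 1.05 to 1.55 for Rpl10l and from −0.996 to −1.27 for Rps27l. With the groups pooled, Rpl10l and Rps27l stayed called whichever library was left out, with highest adjusted p-values of 0.00307 and 0.00816. With the GC and length trend removed, Rps27l was still called in these 4 comparisons (folds −0.87, −0.91, −0.78 and −0.81), and Rpl10l only with the groups pooled (0.83 ± 0.23, adjusted p = 0.0156), being at 0.96 (0.0876), 0.84 (0.102) and 0.68 (0.229) in the other 3.

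Each of the 6 paralogues was also set against its partner within a library, and Rpl10l and Rps27l were the pairs without overlap between KO with 41585 and the other lines. Their coding GC differs, at 45.5% for Rps27l and 50.6% for Rps27, and 58.8% for Rpl10l and 51.0% for Rpl10. Rps27l stood at 29.5% to 40.0% of the CPM of Rps27 in the 4 libraries of KO and 41585 and at 49.5% to 77.3% in the other 8. Rpl10l stood at 14.4% to 16.7% of Rpl10 in those 4 and at 5.04% to 8.77% in the other 8. For Rpl22l1 the ranges were 33.2% to 50.2% and 29.9% to 63.8% of Rpl22, for Rpl39l 8.17% to 19.1% and 7.86% to 17.0% of Rpl39, and for Rpl7l1 7.48% to 9.89% and 6.62% to 13.5% of Rpl7, so these overlapped, as did those of Rpl3l, which was at or under 0.0948% of Rpl3. Rps27 itself was at 395 and 401 CPM in KO and 472 and 405 in WT, and Rpl10 at 962 and 974 in KO and 953 and 976 in WT, and neither was called in any comparison.

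**Figure D4:**
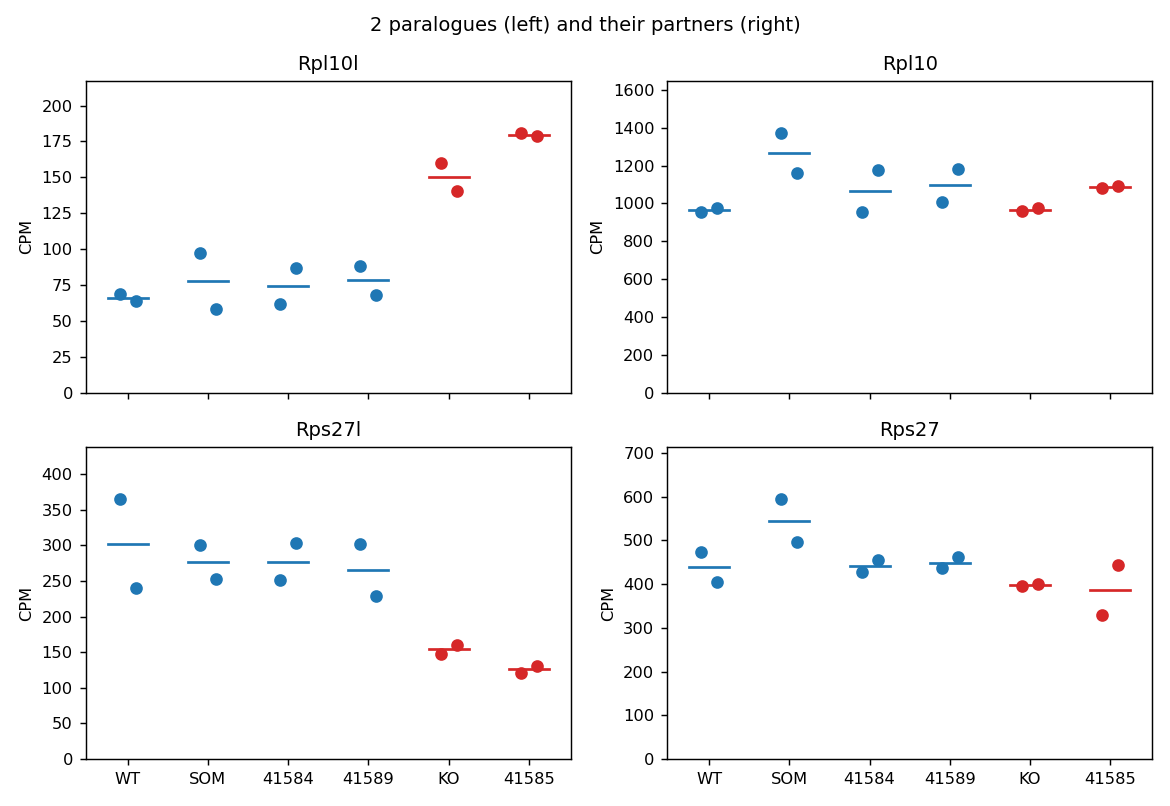
The plot shows CPM (y axis, from 0) by line (x axis), with a point for each library and a bar at the mean of the 2, for Rpl10l and Rps27l on the left and for Rpl10 and Rps27 on the right; KO and 41585 are in red. Rpl10l lies at 140 to 181 CPM in red and at 58.6 to 97.5 in the other lines, and Rps27l at 121 to 160 and 229 to 365.

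The coding sequences show how far the members of each pair differ. Rps27 and Rps27l have 255 coding bases each and differ at 61 of them (76.1% identity), and Rpl10 and Rpl10l have 645 each and differ at 98 (84.8%). Capitals mark the bases that differ, over the whole coding sequence for the first pair and over the first 150 bases, with 25 differences, for the second.

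Rps27: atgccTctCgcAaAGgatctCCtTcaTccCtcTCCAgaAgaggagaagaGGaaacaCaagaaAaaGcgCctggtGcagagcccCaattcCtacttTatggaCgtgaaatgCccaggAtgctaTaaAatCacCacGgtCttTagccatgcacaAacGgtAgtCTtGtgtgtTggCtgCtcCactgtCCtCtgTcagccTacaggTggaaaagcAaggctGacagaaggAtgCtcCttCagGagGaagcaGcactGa
Rps27l: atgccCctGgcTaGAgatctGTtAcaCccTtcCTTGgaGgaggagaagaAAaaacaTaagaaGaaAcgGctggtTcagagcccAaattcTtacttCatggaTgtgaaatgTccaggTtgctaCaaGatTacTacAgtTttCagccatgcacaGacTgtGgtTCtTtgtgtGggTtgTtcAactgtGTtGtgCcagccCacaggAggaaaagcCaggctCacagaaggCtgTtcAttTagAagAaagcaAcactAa
Rpl10: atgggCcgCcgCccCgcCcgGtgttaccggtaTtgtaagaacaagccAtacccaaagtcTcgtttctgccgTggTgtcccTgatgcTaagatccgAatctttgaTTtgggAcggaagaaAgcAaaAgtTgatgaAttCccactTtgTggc
Rpl10l: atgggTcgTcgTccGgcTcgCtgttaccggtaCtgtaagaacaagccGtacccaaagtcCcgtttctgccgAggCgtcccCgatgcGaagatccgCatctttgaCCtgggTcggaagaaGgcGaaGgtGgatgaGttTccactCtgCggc

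Rps27 shared 98.6% of its 50-base stretches with transcripts of other genes and Rps27l 22.4%, so the level of Rps27 is the less certain of the pair.

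The other 4 paralogues were not called in KO against WT. Rpl22l1, which Rpl22 protein is known to repress, stood at −0.73 ± 0.31 (adjusted p = 0.130) there, fell by 1.15 ± 0.31 in 41585 against WT (0.0183), and stood at −0.54 ± 0.20 (0.0528) with the groups pooled; its lowest library, 143 CPM, was 41589 replicate 2. Rpl39l, a paralogue of Rpl39 known from germ cells, was at 114 and 91.6 CPM in WT, 94.1 and 55.0 in SOM, 93.8 and 115 in 41584, 88.7 and 39.1 in 41589, 56.3 and 51.1 in KO, and 70.2 and 92.1 in 41585. The KO libraries lay below those of WT, but the lowest of the 12 was 41589 replicate 2, and it was called nowhere. Rpl7l1 was at 149 and 194 CPM in WT, 322 and 222 in SOM, 144 and 144 in KO, and 169 and 171 in 41585; it stood at −0.37 ± 0.16 with the groups pooled (0.0838) and fell by 0.48 ± 0.15 (0.0279) when SOM was added to the groups compared. Rpl3l was under 2 CPM in every library.

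In 41585 against WT, 26 of the 82 were called higher and 2 lower, against 29.2% of all tested genes called (16.3% higher, 12.9% lower), and the median fold was 0.37, with 0.00 over all tested genes. The 26 were 15 genes of the large and 11 of the small subunit, and 23 of them lie above the median GC of the 82. Rpl36 rose by 2.90 ± 0.81 (adjusted p = 0.0208), Rps29 by 2.22 ± 0.48 (0.00774) and Rplp1 by 2.14 ± 0.62 (0.0233). Rpl41, a peptide of few residues, has 51.3% GC, below that median, and rose by 2.17 ± 0.48 (0.00870). Rps15 rose by 1.98 ± 0.62 (0.0325) and Rpl18 by 1.91 ± 0.54 (0.0213). Rps12, with 50.9% GC, rose by 0.87 ± 0.26 (0.0249), at 520 and 542 CPM in WT and 959 and 987 in 41585. The genes called lower were Rps27l and Rpl22l1.

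The same 26 genes were examined in 41589. There 25 of them were higher in replicate 2 than in replicate 1, 18 by more than 1 on the log2 scale, and the exception was Rpl10l. In 14 of the 26, 41589 replicate 2 was at least as high as the lower of the 41585 libraries, and in 22 replicate 1 was no higher than the higher of the WT libraries. The number called in 41585 against WT fell when a WT or 41585 library was left out. Such a fit has 1 library in a compared line, so its count is not given. With the GC and length trend removed, 22 were called higher and 1 lower, Rps27l, and a GC slope remained in these libraries as given above. The total over all genes in that fit is not given here, so this count is no result about the 82. Whether base composition brings these calls about was not tested.

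In 41585 against KO, Rpl36 was at 9.15 and 9.08 CPM in KO and 43.1 and 43.4 in 41585, and its fold was 2.24 ± 0.78 (adjusted p = 0.642). In this comparison edgeR, with all lines in the fit, called 0 of the 82 and 0% of all tested genes, and so did DESeq2 for the 82. At an unadjusted p under 0.05 there were 27 of the 82 (32.9%) and 995 of all genes (6.80%), and the median fold was 0.40. With only KO and 41585 in the fit, 29 of the 82 were called, all higher, and with no filter on low counts 14. The 0% over all tested genes belongs to the filtered fit with all lines, not to these fits. Their totals over all genes are not given here, so these counts are no result about the 82. The difference between the contrasts 41585 against 41584 and KO against WT was called for 0 of the 82 and 0% of all genes, with 0 and 419 at an unadjusted p under 0.05.

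In 41585 against 41584, Rpl10l was called higher and Rps27l lower, 1 and 1 of the 82, against 12.7% of all tested genes (7.65% higher, 5.07% lower), with a median fold of 0.28 and −0.01 over all tested genes. The count depended on the libraries in the fit, and whether the total over all genes changed with it is not given here. Without 41589 replicate 1 it was 21 and without 41589 replicate 2 20. DESeq2 called 10, and edgeR with no filter on low counts 22. Rpl36 stood at 1.62 ± 0.76 (adjusted p = 0.162) and Rps29 at 1.43 ± 0.46 (0.0584).

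Among the lines other than KO and 41585, edgeR with all lines in the fit called no ribosomal protein gene, and 0% of all tested genes. In 41589 against 41584 the median fold over the 82 was 0.12, with 0 of the 82 and 103 of all genes at an unadjusted p under 0.05. It was −0.14 without 41589 replicate 2 and 0.33 without 41589 replicate 1, so its sign followed the library kept. In 41584 against WT the median was also 0.12, with 1 of the 82 and 706 of all genes at an unadjusted p under 0.05. In SOM against WT it was 0.37, or 0.18 without SOM replicate 1, with 14 of the 82 and 3175 of all genes at an unadjusted p under 0.05. DESeq2 called 0, 0 and 3 of the 82 in these comparisons, and with only SOM and WT in the fit edgeR called 19 of the 82 in SOM against WT, all higher. Totals over all genes in these other fits are not given here, and the 0% above is not their background. In the edgeR fit with all lines, SOM against WT had 17.1% of the 82 and 21.7% of all genes at an unadjusted p under 0.05.

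**Figure D5:**
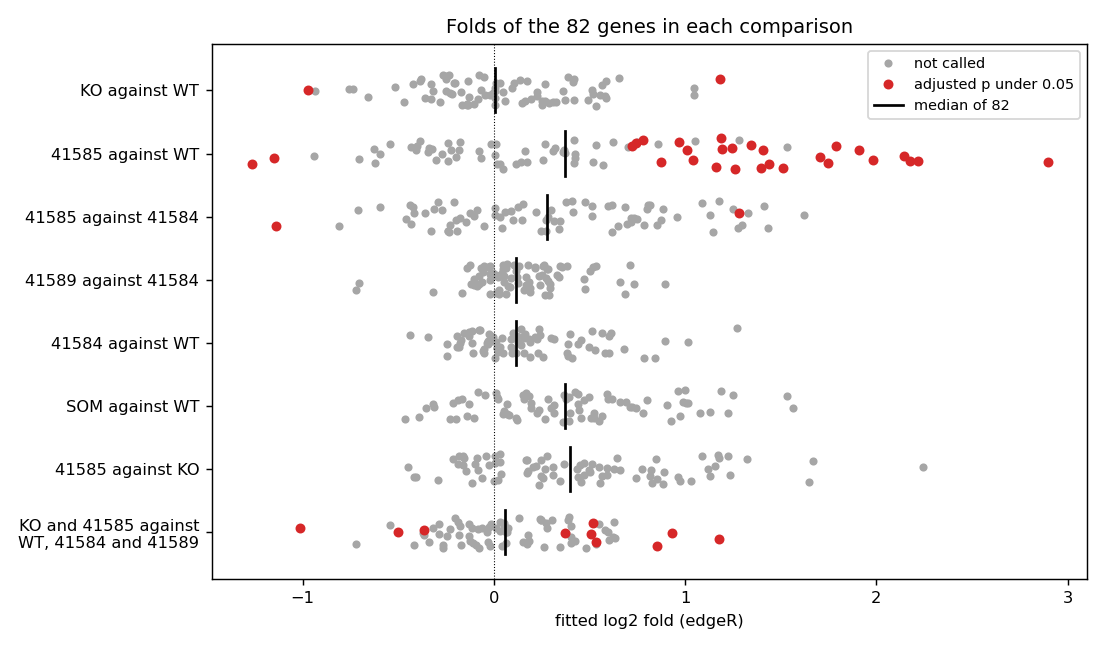
Each point is the fitted log2 fold (x axis) of 1 of the 82 genes in 1 of 8 comparisons (y axis); red points have an adjusted p under 0.05 and the black bars are the medians over the 82. The red points number 28 in 41585 against WT, 10 with the groups pooled and 2 each in KO against WT and 41585 against 41584, and the spread is widest in 41585 against WT.

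With KO and 41585 set against WT, 41584 and 41589, 7 of the 82 were called higher and 3 lower, against 33.5% of all tested genes (17.6% higher, 15.9% lower), and the median fold was 0.06. Higher were Rpl10l, Rps29 (0.93 ± 0.29, adjusted p = 0.0268), Rpl41 (0.85 ± 0.29, 0.0404), Rpsa (0.54 ± 0.18, 0.0327), Rpl29, Rpl13a and Rps23. Lower were Rps27l, Rps20 (−0.50 ± 0.15, 0.0249) and Rpl9 (−0.36 ± 0.13, 0.0454). Rpsa, a small-subunit protein also known as the laminin receptor, was at 1326 and 1184 CPM in KO and 1978 and 1901 in 41585, and its other 8 libraries ran from 821 to 1624, so the groups overlapped. The number called was 35 without 41589 replicate 2 and 5 without 41589 replicate 1. It was 2 without WT replicate 1, without either KO library and without 41585 replicate 2, 3 without 41585 replicate 1 and 6 without WT replicate 2. Totals over all genes in the fits with a library left out are not given here, so these counts are no result about the 82. With SOM added to the groups compared, 2 were called higher (Rpl10l and Rps29) and 5 lower (Rps27l, Rps20, Rpl9, Rpl22l1 and Rpl7l1), with 32.2% of all genes called.

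Counting libraries instead of fitting them, 1 of the 82 was higher in all 4 libraries of KO and 41585 than in all 8 others and 8 were lower, while over all tested genes 10.2% were higher and 7.56% lower. The higher gene was Rpl10l. The 8 lower were Rps27l, Rps20, Rpl9, Rpl22, Rpl23, Rpl35a, Rpl36a and Rps15a, all with a coding GC of 48.9% or less. Rps20 was at 552 and 597 CPM in KO and 548 and 630 in 41585, and between 728 and 1086 in the other 8. Rpl9 was at 986 and 923 CPM in KO and 983 and 958 in 41585, and between 1175 and 1438 in the others, among them 1286 in 41589 replicate 2. Rps15a was at 851 and 811 CPM in KO and 785 and 887 in 41585, and between 953 and 1122 in the others. Of these 8, the pooled test called Rps27l, Rps20 and Rpl9.

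By place in the ribosome, 3 of the 4 genes of the P stalk and its base were called higher in 41585 against WT, with a median fold of 1.32 over the 4, where 31.7% of the 82 and 16.3% of all tested genes were called higher. Rplp0, Rplp1 and Rplp2, which form the stalk that recruits elongation factors, were the 3 called, with a coding GC of 55.9%, 57.7% and 56.3%. The part of base composition in these calls was not tested. Rpl12, which sits at the base of the stalk and has 53.8% GC, stood at 0.02 ± 0.24 (adjusted p = 0.968). Rplp0 was at 252 and 303 CPM in WT, 697 and 412 in SOM, 414 and 377 in 41584, 287 and 682 in 41589, 382 and 360 in KO, and 650 and 666 in 41585, so that SOM replicate 1 and 41589 replicate 2 were above both 41585 libraries. The 5S particle proteins Rpl5 and Rpl11, which bind Mdm2 when ribosome assembly fails, were called nowhere; Rpl5 stood at −0.63 ± 0.23 (0.0601) and Rpl11 at 0.42 ± 0.25 (0.211) in 41585 against WT, the first with 45.9% and the second with 53.3% GC. Of the 8 genes whose proteins line the exit tunnel, Rpl19 was called in 41585 against WT (1.79 ± 0.44, 0.0125). Of the 9 genes mutated in Diamond-Blackfan anaemia that were listed, Rps26 was (1.51 ± 0.38, 0.0140).

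Chromosome 15 carries Rpl3, Rpl8, Rpl30 and Rpl37. The 362 other coding genes of that chromosome stood, on median and relative to the rest of the genome, at 0.44 and −0.21 on the log2 scale in the 41585 libraries, 0.24 and −0.48 in those of 41584, and 0.05 and −0.36 in those of SOM. Rpl8, with 58.7% GC, was at 1311 and 812 CPM in 41585, 720 and 276 in 41584 and 793 and 437 in SOM. Rpl30, with 44.5%, was at 507 and 404 CPM in 41585, 552 and 494 in 41584 and 608 and 430 in SOM. In 41585 and 41584 replicate 1 was the higher for both genes, as it was for the chromosome. In SOM all 82 genes were higher in replicate 1, on this chromosome or not. In 41589 the chromosome stood at 0.06 and −0.20. There Rpl8 (302 and 965 CPM) and Rpl37 (243 and 354) went the opposite way, and Rpl30 (624 and 367) and Rpl3 (1877 and 1735) the same way. In WT the chromosome stood at 0.003 and 0.14. There Rpl30 (769 and 557 CPM) went the opposite way, and Rpl8 (236 and 498), Rpl3 (1706 and 1846) and Rpl37 (196 and 241) the same way. The part of the chromosome in these values was not tested.

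Outside the symbol rule, Fau, which encodes a ubiquitin-like protein fused to a small-subunit one, rose by 0.66 ± 0.23 on the log2 scale with the groups pooled (adjusted p = 0.0382). Among 77 mitochondrial ribosomal protein genes 7 were called higher and 6 lower, where 33.5% of all tested genes were called in either direction, with Mrps17 at −0.89 ± 0.15 (0.000918) and Mrpl42 at −0.78 ± 0.14 (0.00141), and the median was 0.02.

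The genes that make, feed and use ribosomes gave the following counts with the groups pooled, where 17.6% of all tested genes were called higher and 15.9% lower. With lists this short, counts of a few genes lie near those shares and are no result about a list. Of 15 genes of elongation factors and other TOP mRNAs edgeR called 0, the lowest adjusted p being 0.0559 for Pabpc1 (−0.61 ± 0.23), which encodes a poly(A)-binding protein. Of 24 initiation factor genes 0 were higher and 5 lower, among them Eif1ax (−1.07 ± 0.17, adjusted p = 0.000637), which helps scan for the start codon, and Eif4a2 (−1.17 ± 0.24, 0.00282), an RNA helicase. Of 33 ribosome assembly genes 2 were higher and 5 lower, with the pseudouridine synthase Dkc1 at −0.67 ± 0.16 (0.00575). Of 15 RNA polymerase I genes 3 were higher and 0 lower: Taf1b, Ubtf and Cd3eap, at 0.65 to 0.77. Of 18 genes of mTOR and MYC control 3 were higher and 1 lower, with the kinase Akt1 at 1.19 ± 0.32 (0.0135), Mycn at 0.77 ± 0.22 (0.0188) and Eif4ebp2, a repressor of initiation, at −0.52 ± 0.15 (0.0151). The median folds of these 5 lists were 0.01, −0.11, −0.09, 0.10 and 0.12, against −0.01 over all tested genes.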

How the data were processed

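The files hold raw counts per gene and library, deposited by the authors for 12 mRNA libraries and 47643 Ensembl genes. Libraries were made with TruSeq reagents and are reverse-stranded, per the labels' protocols. Reads were aligned with STAR 2.4.2a to mm10 (GRCm38), per the submitters' processing notes; no source used here gives the counting program or its annotation. GENCODE M21, of the same build, gave names, positions and coding sequences (1 transcript per gene) to all but 419 genes. Coordinates are 1-based.

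Counts were tested with edgeR 4.0.16 in R 4.3.3 (robust quasi-likelihood, TMM, filterByExpr, 1 mean per group, 6 residual degrees of freedom, common biological coefficient of variation 0.278), checked first on simulated data, with Benjamini-Hochberg adjustment over 14629 genes and a threshold of 0.05. Log2 CPM used a prior count of 2. Alternatives were other scalings and filters, fits of only the groups compared, DESeq2 1.42.0, a replicate block, removal of each library's GC and length trend, and each library left out. The members and gene lists were chosen with earlier results of these data known. Named were, per comparison, the called members (at most 15) and the 6 highest and 6 lowest folds, then the paralogues, the P stalk genes, Rpsa, the chromosome 15 members, the 5 most and 5 least abundant members per kilobase and up to 4 genes of each other list; other members were named after their values were seen, in tests of the lists they belong to or as examples.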

Additional observations from a re-analysis of the deposited data

How the results depend on the processing

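All 82 genes passed the main filter, and 312 of the 356 recomputed counts, medians and shares stayed within 1.5 times the count or 1 standard deviation of the main value. For the medians that standard deviation was 0.19, wider than some of them, such as 0.01 in KO against WT and 0.12 in 41589 against 41584. A count of 0 that stayed 0 also scored as unchanged, so the tally says little about stability. Apart from fits with a library left out, the counts of called members outside these limits follow. With no filter on low counts, 5 members were called in KO against WT, 22 in 41585 against 41584, 16 in SOM against WT, 14 in 41585 against KO and 17 with the groups pooled. With only the groups compared in the fit, these were 10, 1, 19, 29 and 6. DESeq2 called 10 in 41585 against 41584 and 3 in SOM against WT. Totals over all genes in these fits are not given here, so these counts are no result about the 82.

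Leaving out 1 library at a time gave 0 to 5 called members in KO against WT, 0 to 36 in 41585 against WT, 0 to 21 in 41585 against 41584, 0 to 1 in SOM against WT and 2 to 35 with the groups pooled. The median fold ran from −0.14 to 0.33 in 41589 against 41584 and from 0.18 to 0.54 in SOM against WT. With both WT replicate 1 and 41589 replicate 2 left out, a choice made after seeing the data, the counts were 0, 13, 21 and 27 in KO against WT, 41585 against WT, 41585 against 41584 and the pooled groups, and the median in 41589 against 41584 was −0.13. The cause was not tested.

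Replicate numbers were shared between groups. Over 15 pairs of groups, the deviations of same-numbered libraries correlated at −0.08 to 0.51, 5 of them over 0.1 and the other 10 not, and the labels tie no number to a shared culture or day, so the numbers were not used as pairs; some groups may still share a feature by number. With the replicate number as a block, the pooled count was 9 and the others were 2, 28 and 2, or 0 as before. With 2 libraries per line, the fit cannot separate a line from its libraries, and intervals cover the spread of these libraries only.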
